A study of Mus musculus with 11 samples.

Results

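Oxidative phosphorylation genes were taken as every entry of the gene table whose mouse symbol names a subunit of respiratory complexes I to V, together with the complex I assembly factors that carry an Ndufaf name. Entries with pseudogene symbols were left out, which removed 9 of 121 matches. The remaining 112 members, of 54686 entries in all, comprised 99 nuclear entries and the 13 protein-coding genes of mitochondrial DNA. By complex, the nuclear members were 39 of complex I, 4 of complex II, 9 of complex III, 21 of complex IV, 18 of complex V and 8 complex I assembly factors, with Ndufa4 and Ndufa4l2 placed in complex IV. The mitochondrially encoded members were 7 of complex I, 1 of complex III, 3 of complex IV and 2 of complex V.

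The RNA came from B16-OVA, a melanoma line of the C57BL/6J mouse strain that makes ovalbumin, and every group is this line after an siRNA transfection. Cells received either a siRNA pool against YAP and TAZ, transcriptional co-activators encoded by Yap1 and Wwtr1, or a control siRNA. They were heated 48 h later at 45 °C for 1 h with 6 h of recovery at 37 °C, or were left unheated. With YAP/TAZ siRNA there were 3 heated and 3 unheated libraries, and with control siRNA 2 heated (numbered 1 and 3) and 3 unheated ones. Heated control siRNA replicate 2 is not analysed here. Separate cultures are not stated for the replicates, so a p-value here measures only their spread and may reflect technical variation.

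Oxidative phosphorylation passes electrons from NADH and succinate through complexes I, II, III and IV to oxygen, and complex V (ATP synthase) uses the resulting proton gradient to make ATP. Complexes I, III, IV and V are mosaics: part of their membrane core is encoded in mitochondrial DNA and transcribed inside the organelle, while most subunits are nuclear, made in the cytosol and imported. Complex II, which also belongs to the citric acid cycle, is encoded in the nucleus alone. In melanoma cells the co-activator PGC-1α, the product of Ppargc1a, is known as a regulator of this gene set.

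The libraries held 30.5 to 43.9 M fragments, as read from the steps between low values. Values were FPKM, fragments per transcript length and library depth, and their sum was 340458 to 360547 in heated YAP/TAZ siRNA libraries against 304648 to 331961 in the other libraries. Yap1 was at 2.26 to 3.02 FPKM under YAP/TAZ siRNA, against 5.79 to 15.6 FPKM under control siRNA, and Wwtr1 at 1.40 to 1.83 FPKM, against 5.37 to 8.47 FPKM. The heat-induced chaperone gene Hspb1 was at 112 to 232 FPKM in heated and 10.0 to 13.6 FPKM in unheated YAP/TAZ siRNA libraries, against 3296 to 3321 FPKM in heated and 11.9 to 16.1 FPKM in unheated control siRNA ones. This gene was far above all other groups in heated cells with control siRNA. All 8 melanocyte markers passed the filter on low values, with a summed level of 7206 to 8061 FPKM in heated and 7929 to 8277 FPKM in unheated YAP/TAZ siRNA libraries, and of 6287 to 6533 FPKM in heated and 7064 to 7678 FPKM in unheated control siRNA libraries. Markers of fibroblasts, macrophages, lymphocytes, endothelium and keratinocytes passed for 2 of 8, 2 of 7, 1 of 7, 0 of 5 and 0 of 5 genes, with Dcn, C1qa, C1qb, Cd8a, Ms4a1, Cdh5, Krt10 and Dsg3 at 0 throughout. The macrophage list summed to 2.71 to 3.24 FPKM in heated and 1.47 to 1.90 FPKM in unheated YAP/TAZ siRNA libraries, against 6.18 to 6.70 FPKM in heated and 2.28 to 2.60 FPKM in unheated control siRNA libraries. For lymphocytes the sums were 0.181 to 0.365 FPKM in heated and 0.0437 to 0.239 FPKM in unheated YAP/TAZ siRNA libraries, against 1.91 to 1.92 FPKM in heated and 0.125 to 0.317 FPKM in unheated control siRNA libraries. For endothelium they were 0.112 to 0.211 FPKM in heated and 0.103 to 0.123 FPKM in unheated YAP/TAZ siRNA libraries, against 1.28 to 1.52 FPKM in heated and 0.155 to 0.293 FPKM in unheated control siRNA libraries. These lists were highest in heated control siRNA libraries. Fibroblast markers summed to 1.02 to 1.06 FPKM in heated and 1.44 to 1.63 FPKM in unheated YAP/TAZ siRNA libraries, against at most 1.52 FPKM in heated and 2.87 to 3.16 FPKM in unheated control siRNA libraries. They were highest in unheated control siRNA libraries, and the keratinocyte list reached at most 0.0807 FPKM in any library. The part of these shifts in the results was not tested.

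Of the 112 members, 101 (88 nuclear and all 13 mitochondrially encoded) reached 1 FPKM in at least 2 libraries and were tested among 12626 genes. Of the alternative subunit forms, Cox4i2, Cox6a2, Cox6b2, Cox7a1, Cox7b2, Cox8b, Cox8c and Ndufa4l2 did not reach this level, and their counterparts Cox4i1, Cox6a1, Cox6b1, Cox7a2, Cox7b, Cox8a and Ndufa4 did. Cox7b2 and Cox8c were listed at 0 in all 11 libraries, whereas Cox8a was at 324 to 702 FPKM. Ndufa11b and an unexpressed second Atp5o entry were also not tested. Ndufs8, which encodes an iron-sulfur subunit that complex I needs, was listed at only 0.0166 to 0.340 FPKM, while the lowest value among 6 other nuclear core subunits was 18.0 FPKM, for Ndufv1. For Ndufs8 the table gives no usable level.

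Summed over the nuclear members, heated YAP/TAZ siRNA cells stood above all other groups. The sums were 7465, 6683 and 8030 FPKM in heated and 5470, 4889 and 5851 FPKM in unheated YAP/TAZ siRNA libraries, against 4938 and 5299 FPKM in heated and 5298, 5171 and 5591 FPKM in unheated control siRNA libraries. The lowest heated YAP/TAZ siRNA library thus exceeded the highest of the other 8. The mitochondrially encoded members were ordered otherwise. They summed to 45626, 48298 and 48108 FPKM in heated and 48278, 47524 and 49626 FPKM in unheated YAP/TAZ siRNA libraries, against 50653 and 50745 FPKM in heated and 39925, 41881 and 39694 FPKM in unheated control siRNA libraries. In summed FPKM the unheated control siRNA libraries stood apart at the low end. As a percentage of all FPKM of the library, mitochondrially encoded members were 13.1, 14.2 and 13.3% in heated and 15.6, 15.6 and 15.4% in unheated YAP/TAZ siRNA libraries, against 15.5 and 15.3% in heated and 12.9, 13.5 and 12.5% in unheated control siRNA libraries. On this scale heated YAP/TAZ siRNA and unheated control siRNA libraries overlapped, both below the other libraries. Nuclear members made up 2.14, 1.96 and 2.23% in heated YAP/TAZ siRNA libraries and at most 1.81% in any other library. These sums are levels per transcript length, and in bulk RNA fewer cells with a transcript and less of it per cell cannot be told apart.

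The ratio of mitochondrial to nuclear summed FPKM was 6.44 ± 0.68 in heated and 9.01 ± 0.64 in unheated YAP/TAZ siRNA cells (SD, n = 3 each). In control siRNA cells it was 9.92 ± 0.48 (SD, n = 2) when heated and 7.58 ± 0.50 (SD, n = 3) when unheated. With heat the ratio was lower under YAP/TAZ siRNA and higher under control siRNA, and heated and unheated libraries overlapped under neither. In complex IV alone the ratio was 8.24 ± 0.94 in heated and 11.9 ± 1.24 in unheated YAP/TAZ siRNA cells, against 12.5 ± 0.70 in heated and 8.77 ± 0.28 in unheated control siRNA cells (SD). No test was made on these sums, since they are scores over the chosen members.

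**Figure D1:**
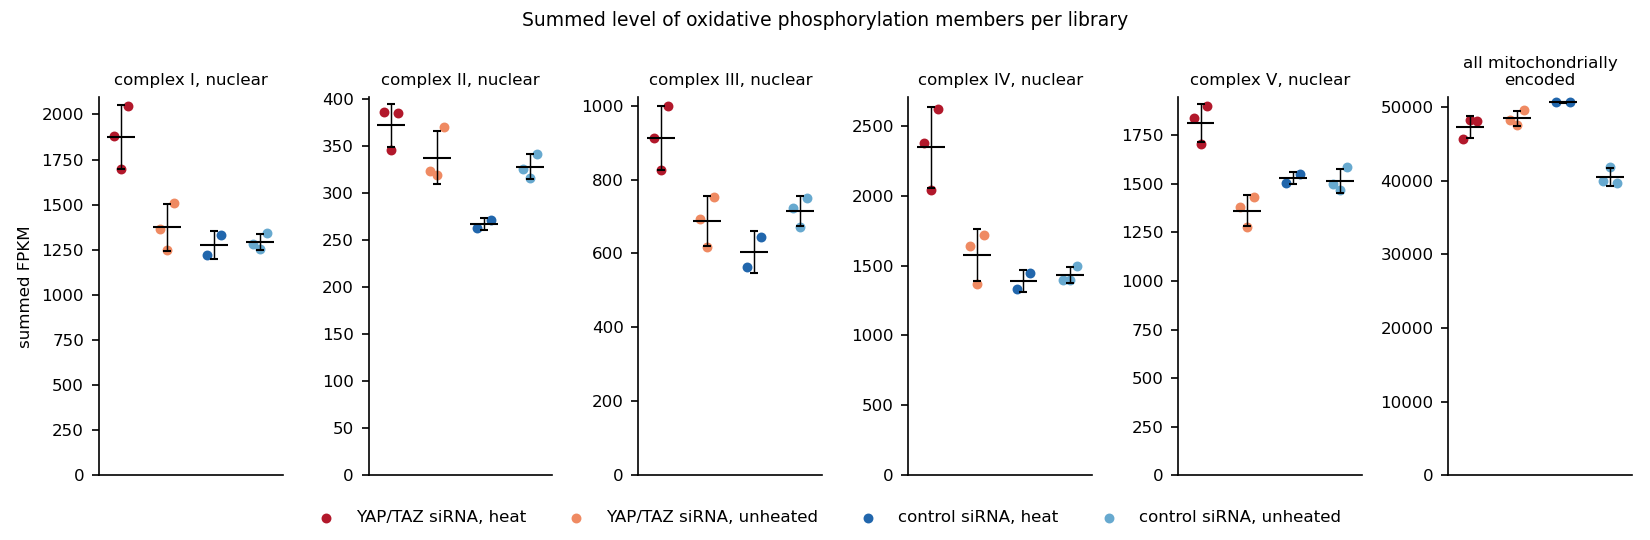
Summed FPKM (vertical axes, from 0) of the nuclear members of complexes I to V and of all mitochondrially encoded members. Each point is a library, horizontal lines are group means and error bars are SDs. In heated YAP/TAZ siRNA libraries the nuclear sum of complex I was 1696 to 2049 FPKM, above the 1219 to 1510 FPKM of all other libraries, while the mitochondrially encoded sum was lowest in unheated control siRNA libraries, which overlap heated YAP/TAZ siRNA libraries once each library is scaled to its summed FPKM.

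The first question was how heat changed these genes in cells with reduced YAP and TAZ. Genes were compared with limma on log2(FPKM + 1), a scale that understates changes of low genes, and were called at a Benjamini-Hochberg adjusted p under 0.05 over all genes tested. Under YAP/TAZ siRNA heat raised 70 of 88 nuclear members and lowered 2, where 18.6% of all genes tested were called higher and 31.7% lower. The median log2 change was 0.42 for the nuclear members and -0.09 for all genes. It was above 0 under each other scaling tried, between 0.23 with a length trend removed and 0.52 with median-of-ratios scaling.

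Under control siRNA fewer of the same members passed: 2 were called higher and 8 lower, where 12.4% of all genes were called higher and 36.9% lower. Their median log2 change of -0.07, beside -0.16 for all genes, had no settled sign, since it was 0.09 with median-of-ratios scaling, under which 10 were called higher and 4 lower. Of all genes 19.9% were higher and 24.4% lower with that scaling. The lower calls of members were 25 with libraries scaled to the same summed FPKM, 18 when mitochondrial genes were left out of that sum and 16 when only the groups compared were fitted, and the higher calls were 15 with a length trend removed. Of all genes 42.5%, 38.5% and 37.6% were lower in those settings, and 22.9% were higher with a length trend removed. With the replicate number fitted as a block 28 members were lower, beside 38.0% of all genes. In each, the share of the 88 members was below that of all genes. The difference between both heat responses (YAP/TAZ siRNA minus control siRNA, the interaction) was called above 0 for 55 nuclear members and below 0 for 0, where 24.6% of all genes were called above 0 and 13.4% below. At an unadjusted p under 0.05 in limma, 66 were above 0 and 0 below. The median difference was 0.46 on the log2 scale, beside 0.11 for all genes, and 86 of 88 members had the higher heat response under YAP/TAZ siRNA. With quantile normalization the count of 55 became 23, and with a length trend removed 24. It was 35 with either median-of-ratios scaling or a sum without mitochondrial genes. Of all genes 18.98%, 17.4%, 19.2% and 13.98% had an interaction called above 0 in those settings, in that order. The share of the 88 members was above that of all genes in each of them. The count also fell without heated control siRNA replicate 1, which leaves 1 library in that group.

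**Figure D2:**
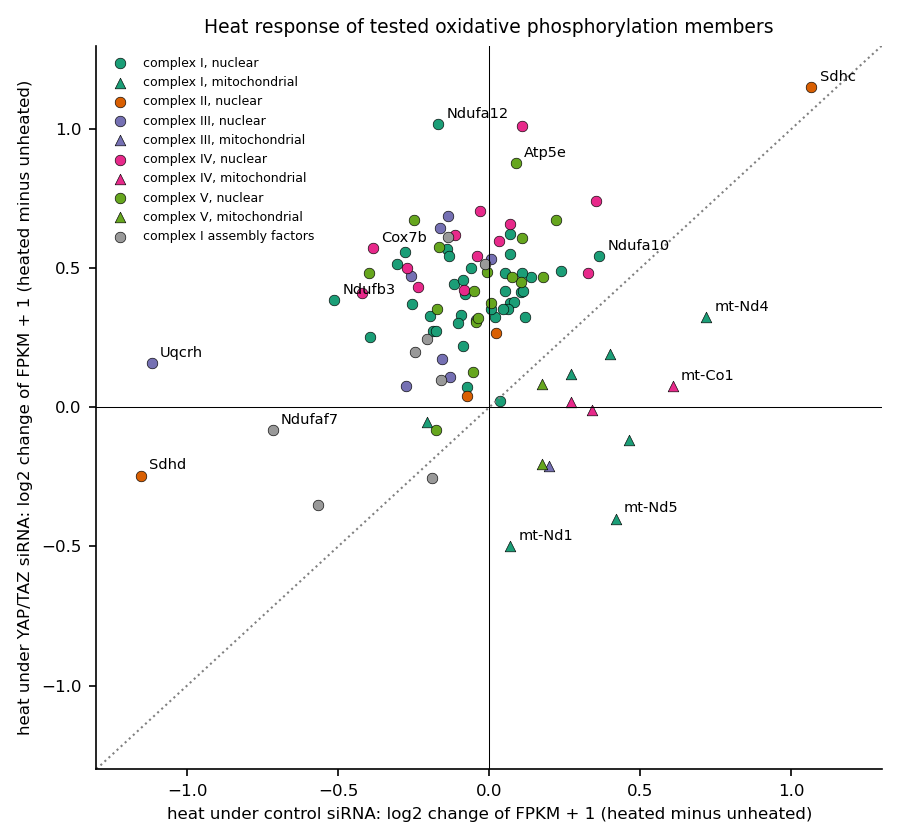
Heat response (heated minus unheated, log2 of FPKM + 1) of the 101 tested members under YAP/TAZ siRNA (vertical axis) and under control siRNA (horizontal axis), coloured by complex, with circles for nuclear and triangles for mitochondrially encoded members. The dotted line marks equal responses. Of 88 nuclear members 86 lie above it, and 12 of 13 mitochondrially encoded members lie below it.

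Complex I takes electrons from NADH. Of its 37 tested nuclear subunits, 32 rose with heat under YAP/TAZ siRNA and 0 fell (33 and 0 at an unadjusted p under 0.05), against 1 and 1 under control siRNA, with median log2 changes of 0.41 and -0.06. For this and the complexes below, 18.6% of all genes rose and 31.7% fell under YAP/TAZ siRNA. Under control siRNA 12.4% of all genes rose and 36.9% fell. The core subunits Ndufv1, which binds NADH, and Ndufs7, next to the quinone site, rose with heat under YAP/TAZ siRNA on the log2 scale by 0.28 ± 0.09 and 0.28 ± 0.09 (SE; adjusted p = 0.0357 and 0.0236, limma). The call of Ndufv1 was lost without heated YAP/TAZ siRNA replicate 1 or 3 or unheated YAP/TAZ siRNA replicate 2 or 3 (0.22 to 0.29), and that of Ndufs7 without heated YAP/TAZ siRNA replicate 1 or 3 or unheated YAP/TAZ siRNA replicate 2 (0.20 to 0.26). Ndufs1, the largest core subunit, had 0.07 ± 0.04 and did not pass (adjusted p = 0.166, limma).

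Ndufb3, an accessory subunit of the membrane arm (chromosome 1, 58586384 to 58595964, GRCm38), was called in opposite directions. It was at 44.2, 35.8 and 47.7 FPKM in heated and 33.8, 27.8 and 35.3 FPKM in unheated YAP/TAZ siRNA libraries, against 23.0 and 22.9 FPKM in heated and 33.1, 32.4 and 34.1 FPKM in unheated control siRNA libraries. Both libraries of heated cells with control siRNA were below all others. The log2 changes with heat were 0.39 ± 0.11 under YAP/TAZ siRNA (adjusted p = 0.0161, limma) and -0.51 ± 0.12 under control siRNA (adjusted p = 0.00657). The call under YAP/TAZ siRNA was lost without heated YAP/TAZ siRNA replicate 1 or 3 or unheated YAP/TAZ siRNA replicate 2 (0.28 to 0.35). Its interaction of 0.90 ± 0.16 was the highest called in complex I (adjusted p = 0.00271, limma).

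Ndufa10, another accessory subunit, was the nuclear complex I member that rose under both siRNAs. It was at 57.3, 56.2 and 60.1 FPKM in heated and 39.9, 37.4 and 41.0 FPKM in unheated YAP/TAZ siRNA libraries, against 57.2 and 58.6 FPKM in heated and 43.8, 44.6 and 46.0 FPKM in unheated control siRNA libraries. Heated libraries were above unheated ones under each siRNA, and the log2 changes were 0.54 ± 0.05 and 0.36 ± 0.05 (adjusted p = 3.42e-05 and 0.000321, limma).

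Ndufa12, an accessory subunit, had the highest called log2 change of complex I with heat under YAP/TAZ siRNA, 1.02 ± 0.29 (adjusted p = 0.0156, limma), and its table entry scattered. It was at 30.6, 29.7 and 21.2 FPKM in heated and 13.0, 10.8 and 14.8 FPKM in unheated YAP/TAZ siRNA libraries, against 14.7 and 22.2 FPKM in heated and 12.4, 25.6 and 26.9 FPKM in unheated control siRNA libraries. Heated and unheated YAP/TAZ siRNA libraries did not overlap, while the unheated control siRNA libraries alone spanned most of that range. The call was lost without heated YAP/TAZ siRNA replicate 1 or unheated YAP/TAZ siRNA replicate 2 (0.90 to 0.92). With its pseudogene copy Gm15920 added, the values were 97.0, 87.5 and 94.5 in heated and 60.9, 47.4 and 63.1 in unheated YAP/TAZ siRNA libraries, and the log2 change was 0.70 ± 0.13 (adjusted p = 0.00174, limma). Of the 101 tested members, 21 had such a copy or over 50% of their 50-base windows in other genes, which left 74 nuclear members. Of these, 57 rose and 2 fell with heat under YAP/TAZ siRNA, beside 18.6% and 31.7% of all genes. Under control siRNA 1 of the 74 rose and 8 fell, beside 12.4% and 36.9% of all genes. An interaction above 0 was called for 47 of the 74, beside 24.6% of all genes.

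Complex II oxidises succinate, and its 4 subunit genes did not move together. Sdhd, a membrane anchor (chromosome 9, 50596357 to 50603812), was at 93.1, 79.5 and 94.3 FPKM in heated and 101, 103 and 113 FPKM in unheated YAP/TAZ siRNA libraries, against 58.0 and 56.8 FPKM in heated and 127, 123 and 136 FPKM in unheated control siRNA libraries. Both libraries of heated cells with control siRNA were the lowest. The log2 change with heat was -0.25 ± 0.07 under YAP/TAZ siRNA (adjusted p = 0.0207, limma) and -1.15 ± 0.08 under control siRNA (adjusted p = 5.09e-06), and the interaction was 0.91 ± 0.11 (adjusted p = 0.00032). The call under YAP/TAZ siRNA was lost without heated YAP/TAZ siRNA replicate 2 or unheated YAP/TAZ siRNA replicate 3 (-0.20 to -0.17). The response under control siRNA was the lowest of all 101 members.

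The other complex II genes differed from Sdhd in value. Sdhb, the iron-sulfur subunit, had 0.27 ± 0.07 with heat under YAP/TAZ siRNA (adjusted p = 0.0129, limma), which turned to -0.11 with quantile normalization. Sdha, the flavoprotein subunit, had 0.04 ± 0.04 and did not pass (adjusted p = 0.398). Sdhc, the other membrane anchor, was at 35.8, 33.0 and 37.9 FPKM in heated and 10.6, 10.2 and 33.4 FPKM in unheated YAP/TAZ siRNA libraries, against 21.6 and 21.2 FPKM in heated and 8.12, 12.5 and 8.91 FPKM in unheated control siRNA libraries. Replicate 3 of the unheated YAP/TAZ siRNA libraries lay among the heated ones. The Sdhc change of 1.15 ± 0.37 under YAP/TAZ siRNA was called (adjusted p = 0.0283, limma), and the 1.07 ± 0.42 under control siRNA was not (adjusted p = 0.0589). The call was lost without heated YAP/TAZ siRNA replicate 1, 2 or 3 or unheated YAP/TAZ siRNA replicate 1 or 2 (0.87 to 1.20), and without unheated YAP/TAZ siRNA replicate 3 the change was 1.68.

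Complex III hands electrons to cytochrome c. All 9 tested nuclear subunits had an interaction called above 0, with a median of 0.53, while 5 rose with heat under YAP/TAZ siRNA and 2 fell under control siRNA. Of all genes 24.6% had an interaction called above 0. The 2 of 9 that fell (22.2%) are below the 36.9% of all genes. The interaction call of Cyc1 was lost without heated YAP/TAZ siRNA replicate 3, unheated YAP/TAZ siRNA replicate 1 or 2, heated control siRNA replicate 1 or 3, or unheated control siRNA replicate 3 (0.20 to 0.24), and that of Uqcrfs1 without heated YAP/TAZ siRNA replicate 1, unheated YAP/TAZ siRNA replicate 1 or 2, heated control siRNA replicate 1, or unheated control siRNA replicate 2 or 3 (0.26 to 0.32). Uqcrh, the hinge subunit next to cytochrome c1 (chromosome 4, 116066965 to 116075071), was at 112, 95.7 and 123 FPKM in heated and 104, 85.8 and 106 FPKM in unheated YAP/TAZ siRNA libraries, against 38.0 and 50.4 FPKM in heated and 98.4, 93.5 and 96.6 FPKM in unheated control siRNA libraries. Both libraries of heated cells with control siRNA were far below all others. Its log2 change with heat was 0.16 ± 0.13 under YAP/TAZ siRNA (adjusted p = 0.319, limma) and -1.12 ± 0.14 under control siRNA (adjusted p = 0.000158). The interaction of 1.28 ± 0.19 was the highest of all members (adjusted p = 0.000887).

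Among the small subunits of complex III, Uqcr11 was at 122, 113 and 141 FPKM in heated and 78.1, 65.5 and 90.2 FPKM in unheated YAP/TAZ siRNA libraries. These groups did not overlap, and the log2 change of 0.69 ± 0.13 was the highest of the complex (adjusted p = 0.00196, limma). The electron-carrying Cyc1 (cytochrome c1) and Uqcrfs1 (the Rieske iron-sulfur protein) had 0.11 ± 0.05 and 0.17 ± 0.07 and did not pass (adjusted p = 0.0928 and 0.0511, limma). Uqcrc1, a core protein, had 0.08 ± 0.05 under YAP/TAZ siRNA, which did not pass (adjusted p = 0.247) and was -0.11 when libraries were scaled to the same summed FPKM without mitochondrial genes. Under control siRNA Uqcrc1 fell with heat (-0.28 ± 0.06, adjusted p = 0.00348).

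Complex IV is cytochrome c oxidase. All 13 tested nuclear subunits rose with heat under YAP/TAZ siRNA, with log2 changes of 0.41 (Cox6b1) to 1.01 (Cox6c2) and a median of 0.57, against 1 that rose and 2 that fell under control siRNA. Cox7b, a small subunit encoded on chromosome X (106015700 to 106022450), was at 176, 155 and 191 FPKM in heated and 124, 99.6 and 127 FPKM in unheated YAP/TAZ siRNA libraries, against 92.2 and 90.3 FPKM in heated and 122, 113 and 123 FPKM in unheated control siRNA libraries. Heated libraries lay above unheated ones under YAP/TAZ siRNA and below them under control siRNA. The changes were 0.57 ± 0.10 (adjusted p = 0.00154, limma) and -0.38 ± 0.11 (adjusted p = 0.0186, lost without heated control siRNA replicate 1 or 3 (-0.40 to -0.37)). The interaction of 0.96 ± 0.15 was the highest in the complex (adjusted p = 0.00131). Cox6b1, which faces cytochrome c, rose under YAP/TAZ siRNA (0.41 ± 0.14, adjusted p = 0.0342, limma), a call lost without heated YAP/TAZ siRNA replicate 1 or 3 or unheated YAP/TAZ siRNA replicate 2 (0.28 to 0.37). It fell under control siRNA (-0.42 ± 0.16, adjusted p = 0.0478), a call lost when 8 of the 11 libraries were left out one at a time (-0.47 to -0.37 in those 8).

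Of the core-facing subunits of complex IV, Cox5a and Cox5b rose with heat under YAP/TAZ siRNA by 0.54 ± 0.09 and 0.71 ± 0.11 (adjusted p = 0.00112 and 0.000744, limma). Cox4i1 was at 300.0, 233 and 296 FPKM in heated and 126, 163 and 216 FPKM in unheated YAP/TAZ siRNA libraries, groups that did not overlap. Its change of 0.74 ± 0.26 was called (adjusted p = 0.0367, limma) but lost without heated YAP/TAZ siRNA replicate 1 or 3 or unheated YAP/TAZ siRNA replicate 1 or 2 (0.55 to 0.73). Cox7a2l, which links complexes III and IV in supercomplexes and is known in C57BL/6 mice in a shortened form, rose with heat under both siRNAs. It was at 144, 128 and 149 FPKM in heated and 100.4, 93.4 and 105 FPKM in unheated YAP/TAZ siRNA libraries, against 96.7 and 99.2 FPKM in heated and 74.5, 75.9 and 83.4 FPKM in unheated control siRNA libraries. Heated libraries were above unheated ones under each siRNA, and the log2 changes were 0.48 ± 0.07 and 0.33 ± 0.08 (adjusted p = 0.000575 and 0.00711, limma).

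Complex V, ATP synthase, had 16 of 17 tested nuclear members higher with heat under YAP/TAZ siRNA. Under control siRNA 0 were higher and 0 lower in limma (1 and 0 at an unadjusted p under 0.05), with values between -0.40 (Atp5k) and 0.22 (Atp5h). Atp5e, the epsilon subunit of the rotor stalk (chromosome 2, 174461072 to 174464105), was at 68.7, 60.6 and 74.0 FPKM in heated and 36.9, 31.0 and 41.8 FPKM in unheated YAP/TAZ siRNA libraries, against 28.3 and 32.0 FPKM in heated and 28.1, 27.5 and 29.3 FPKM in unheated control siRNA libraries. The heated YAP/TAZ siRNA libraries were above all others. Its change of 0.88 ± 0.11 was the highest of the complex (adjusted p = 0.000248, limma), and Atp5mpl, a small membrane subunit, had the highest interaction, 0.92 ± 0.17 (adjusted p = 0.00283).

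The head subunits of ATP synthase differed in value under YAP/TAZ siRNA, and each turned sign under at least 1 other scaling. Atp5b, the catalytic beta subunit, had 0.45 ± 0.05 with heat (adjusted p = 0.000208, limma), near the median of 0.47 for nuclear members of the complex. Its sign turned with quantile normalization alone (-0.060, not called). Atp5a1, the alpha subunit, had a smaller value of 0.13 ± 0.04 (adjusted p = 0.0234, limma). It was -0.38 with quantile normalization, -0.039 with equal summed FPKM and -0.066 with mitochondrial genes left out of that sum. The call was lost without heated YAP/TAZ siRNA replicate 1 or 3 or unheated YAP/TAZ siRNA replicate 1 or 2 (0.11 to 0.13).

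The second question was what YAP/TAZ siRNA changed at each temperature. Without heat the nuclear members were split: 15 were called higher and 13 lower under YAP/TAZ siRNA, where 27.1% of all genes were called higher and 21.9% lower. Their median log2 change was 0.00, beside 0.02 for all genes, and had no settled sign under other scalings (-0.07 to 0.07). With median-of-ratios scaling or without a filter on low values, 9 were higher, beside 22.1% and 12.6% of all genes. Without unheated YAP/TAZ siRNA replicate 1 or 3, or unheated control siRNA replicate 1 or 2, 9 were higher, and without unheated YAP/TAZ siRNA replicate 2 or unheated control siRNA replicate 3, 8 were lower. Of all genes 23.5 to 25.1% were higher in the first cases and 19.2 to 19.3% lower in the second.

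After heat 67 of 88 nuclear members were higher under YAP/TAZ siRNA and 0 lower, where 36.3% of all genes were called higher and 17.9% lower. At an unadjusted p under 0.05 in limma, 70 were higher and 0 lower, and up to 5 were lower under another setting (a length trend removed), beside 27.0% of all genes. The median was 0.55, beside 0.13 for all genes, and lay between 0.31 and 0.46 under the other scalings. Members with long transcripts did not stand out. The 9 over 2000 bases had a median of 0.08, beside 0.09 for all genes of that length. Of these 9, 2 were called higher, beside 34.5% of all genes of that length. By complex, the numbers called higher were 29 of 37 (I), 3 of 4 (II), 6 of 9 (III), 12 of 13 (IV), 12 of 17 (V) and 5 of 8 assembly factors.

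**Figure D3:**
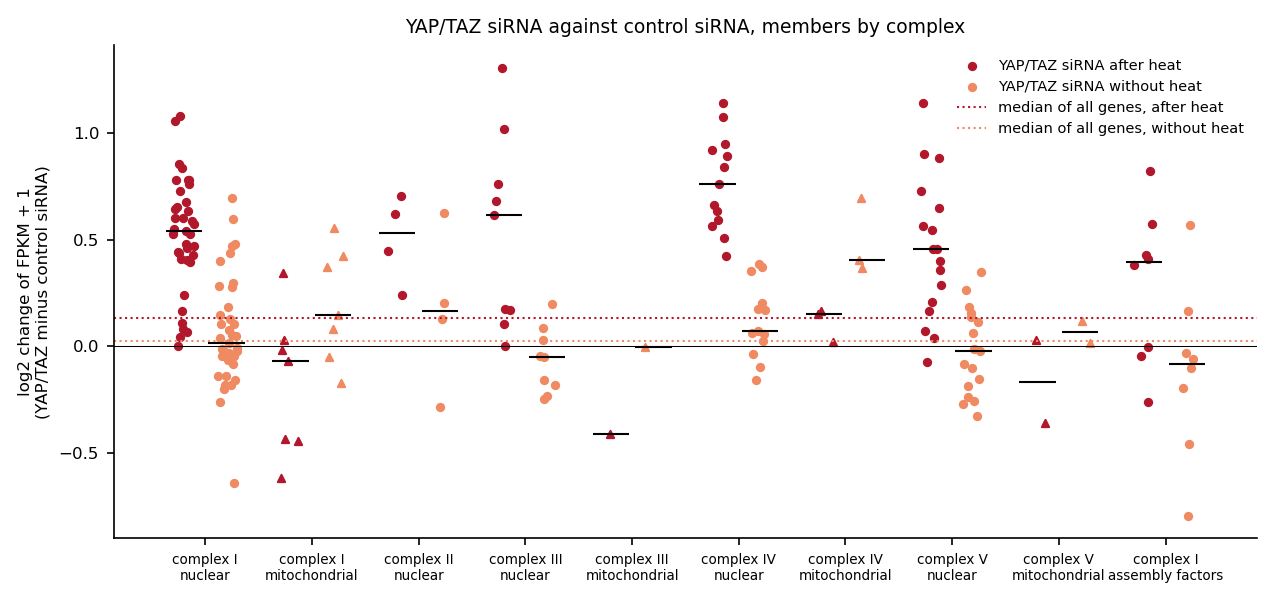
Log2 change of FPKM + 1 (YAP/TAZ siRNA minus control siRNA) of each tested member after heat (left in each pair) and without heat (right), by complex and genome. Black bars are medians of the members and dotted lines are medians of all genes. After heat the nuclear medians are 0.54 in complex I and 0.76 in complex IV, above the median of all genes (0.13).

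In complex I the gene furthest above control siRNA after heat was Ndufv3, a small accessory subunit of the NADH-binding module (chromosome 17, 31520115 to 31531331). It was at 32.5, 29.6 and 35.0 FPKM in heated and 24.8, 21.7 and 25.9 FPKM in unheated YAP/TAZ siRNA libraries, against 14.2 and 15.3 FPKM in heated and 15.8, 14.8 and 16.2 FPKM in unheated control siRNA libraries. The siRNAs overlapped at neither temperature. The log2 changes were 1.08 ± 0.09 after heat (adjusted p = 1.17e-05, limma) and 0.60 ± 0.08 without heat (adjusted p = 0.000219). Ndufa1, a membrane-arm subunit encoded on chromosome X, had the highest change of complex I without heat. It was at 80.2, 62.6 and 80.7 FPKM under YAP/TAZ siRNA and 52.7, 44.0 and 40.2 FPKM under control siRNA without heat, a log2 change of 0.69 ± 0.13 (adjusted p = 0.00188, limma). Ndufb8, an accessory subunit, was the lowest call of complex I without heat (-0.26 ± 0.08, adjusted p = 0.0172) and was lost without unheated YAP/TAZ siRNA replicate 2 or unheated control siRNA replicate 1 or 3 (-0.24 to -0.19).

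In complex II, Sdhd was lower under YAP/TAZ siRNA without heat (-0.29 ± 0.07, adjusted p = 0.00966, limma) and higher after heat (0.62 ± 0.08, adjusted p = 0.000218). In complex III, Uqcrh was higher after heat by 1.31 ± 0.14 (adjusted p = 5.95e-05, limma), the highest of all members, and had 0.03 ± 0.13 without heat, which did not pass (adjusted p = 0.867). Cyc1 and Uqcrc1 fell without heat (-0.23 ± 0.05 and -0.25 ± 0.05, adjusted p = 0.00332 and 0.00318, limma). After heat they had 0.00 ± 0.05 and 0.10 ± 0.06 and did not pass (adjusted p = 0.972 and 0.167), and Cyc1 was -0.14 and called with quantile normalization.

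In complex IV, Cox6a1, the widely expressed form of its subunit, was at 341, 290.0 and 380.2 FPKM in heated and 258, 202 and 255 FPKM in unheated YAP/TAZ siRNA libraries, against 145 and 158 FPKM in heated and 187, 171 and 192 FPKM in unheated control siRNA libraries. YAP/TAZ siRNA libraries were above control siRNA libraries at each temperature. Its changes were 1.14 ± 0.13 after heat (adjusted p = 8.71e-05, limma) and 0.37 ± 0.12 without heat (adjusted p = 0.0256), the second lost without unheated YAP/TAZ siRNA replicate 1 or 3 or unheated control siRNA replicate 1 or 2 (0.31 to 0.39). The interaction was 0.77 ± 0.18 (adjusted p = 0.00798). The highest call of complex IV without heat was Cox6c, a small membrane subunit (0.39 ± 0.13, adjusted p = 0.0392, limma), which was lost without heated YAP/TAZ siRNA replicate 1, unheated YAP/TAZ siRNA replicate 1 or 3, or unheated control siRNA replicate 1, 2 or 3 (0.28 to 0.41). The lowest after heat was Cox5a (0.42 ± 0.10, adjusted p = 0.00613), lost without heated control siRNA replicate 1 (0.35).

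In complex V, Atp5e was higher after heat by 1.14 ± 0.12 (adjusted p = 5.65e-05, limma) and without heat by 0.35 ± 0.11 (adjusted p = 0.0236), the second lost without unheated YAP/TAZ siRNA replicate 1 or 3 or unheated control siRNA replicate 1 or 2 (0.25 to 0.35). Atp5a1 and Atp5b fell without heat (-0.26 ± 0.04 and -0.27 ± 0.05, adjusted p = 0.000508 and 0.00224, limma) and did not pass after heat (-0.08 ± 0.04 and 0.07 ± 0.06, adjusted p = 0.168 and 0.348). Atp5g1, 1 of the genes for the c subunit of the rotor ring, was the lowest call of the complex without heat (-0.33 ± 0.10, adjusted p = 0.0218) and was lost without unheated YAP/TAZ siRNA replicate 1 or 2 or unheated control siRNA replicate 3 (-0.32 to -0.24). With its copy Gm10039 added, Atp5g1 changed by -0.38 ± 0.10 with heat under control siRNA (adjusted p = 0.0133, limma), in place of 0.01.

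The stretches upstream of genes that stood far out are shown for their sequence context: Uqcrh and Sdhd had the lowest heat responses under control siRNA, and Ndufv3, Atp5e and Cox6a1 were the highest of complexes I, V and IV under YAP/TAZ siRNA after heat. Each is the 250 bases before the RefSeq gene start, read 5′ to 3′ on the gene's strand (GRCm38.p6). Capitals mark letters found on either strand: CGCNTGCG or CGCANGCG for NRF1 and CCGGAAG or CTTCCGG for ETS factors such as GABPA, both known regulators of respiratory genes, and TTCNNGAA or GAANNTTC, a short form of the heat shock element.
Uqcrh, chr4:116075071-116075320, minus strand: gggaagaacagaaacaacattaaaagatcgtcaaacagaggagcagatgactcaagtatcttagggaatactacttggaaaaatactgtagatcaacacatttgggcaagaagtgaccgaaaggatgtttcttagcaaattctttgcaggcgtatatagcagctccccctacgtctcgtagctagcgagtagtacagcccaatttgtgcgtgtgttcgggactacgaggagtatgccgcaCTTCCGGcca
Sdhd, chr9:50603850-50604099, minus strand: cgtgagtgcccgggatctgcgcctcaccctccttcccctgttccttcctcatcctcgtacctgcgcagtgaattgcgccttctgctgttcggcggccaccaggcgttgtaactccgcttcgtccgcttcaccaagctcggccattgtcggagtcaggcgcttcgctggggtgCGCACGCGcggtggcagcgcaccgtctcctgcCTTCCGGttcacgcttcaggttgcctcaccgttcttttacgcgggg
Ndufv3, chr17:31519865-31520114, plus strand: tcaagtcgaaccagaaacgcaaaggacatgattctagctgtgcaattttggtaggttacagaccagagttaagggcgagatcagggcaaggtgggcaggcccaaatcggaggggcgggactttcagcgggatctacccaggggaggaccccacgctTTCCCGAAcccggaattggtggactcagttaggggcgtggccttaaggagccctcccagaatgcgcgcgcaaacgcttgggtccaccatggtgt
Atp5e, chr2:174464102-174464351, minus strand: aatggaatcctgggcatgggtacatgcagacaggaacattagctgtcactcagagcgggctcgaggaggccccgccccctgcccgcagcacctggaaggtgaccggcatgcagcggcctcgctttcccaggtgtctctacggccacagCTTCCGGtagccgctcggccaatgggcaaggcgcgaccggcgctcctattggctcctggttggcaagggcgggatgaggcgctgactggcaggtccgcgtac
Cox6a1, chr5:115348959-115349208, minus strand: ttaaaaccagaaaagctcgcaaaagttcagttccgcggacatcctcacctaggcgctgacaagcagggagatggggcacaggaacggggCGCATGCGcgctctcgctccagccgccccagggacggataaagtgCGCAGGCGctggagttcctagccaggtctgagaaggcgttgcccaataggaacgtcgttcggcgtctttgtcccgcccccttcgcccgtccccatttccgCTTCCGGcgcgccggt
The Uqcrh, Sdhd, Atp5e and Cox6a1 stretches held the ETS letters and Sdhd and Cox6a1 also those for NRF1. Ndufv3 held the heat shock element letters and neither of the others.

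Of 98 nuclear member symbols, 72 had a RefSeq stretch. The NRF1 letters were in 17 of them (23.6%), against 6.94% of 27025 genes' stretches, and the ETS letters in 13 (18.1%), against 7.05%. The letters AANATGGC or GCCATNTT (YY1) were in 5 (6.94%), against 3.93%, and GGAATG or CATTCC (TEAD, the partner of YAP and TAZ) in 6 (8.33%), against 12.6%. The heat shock element letters were in 8 (11.1%), against 12.9%. No pair of these motifs was scored for overlap, and the NRF1 forms can overlap each other. These are counts of letters in a short window, not of bound sites. The 27025 genes include many that were not tested here, and members were not compared with expressed genes alone. For members the stretch nearest the annotated start was taken, and for all genes the first listed.

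The mitochondrially encoded genes are copied from both strands of mitochondrial DNA as long transcripts that are then cut into messengers. Under control siRNA heat raised 11 of 13 and lowered 0 (11 and 0 at an unadjusted p under 0.05), with a median log2 change of 0.27. Of all genes 12.4% were called higher and 36.9% lower, with a median of -0.16. Under YAP/TAZ siRNA 18.6% of all genes were called higher and 31.7% lower with heat, with a median of -0.09. Of the 13 members 1 rose and 4 fell (30.8%), the second near the share of all genes. Their median was -0.01, and its sign was not settled (-0.23 to 0.09 under other scalings). These counts turned to 4 and 1 with median-of-ratios scaling, to 0 and 9 when libraries were scaled to the same sum without mitochondrial genes, and 8 fell with a length trend removed. Of all genes 24.2% rose and 23.2% fell in the first of these settings, 10.3% and 48.4% in the second, and 21.8% fell in the third. The interaction was below 0 for 7 and above 0 for 0 (9 and 0 at an unadjusted p under 0.05), with a median of -0.38 that was below 0 under each scaling tried (-0.62 to -0.17). Of all genes 13.4% were called below 0 and 24.6% above, with a median of 0.11. With quantile normalization 3 were below and 1 above 0, without a filter on low values 2 were below, and with a length trend removed 12. Of all genes 15.7% were below and 18.98% above 0 with quantile normalization. Below 0 were 11.01% of all genes without a filter and 17.6% with a length trend removed. The 2 of 13 below 0 without a filter are near the share of all genes there. Without heated control siRNA replicate 1 or 3 the count of 11 became 5 (7.09% or 7.99% of all genes higher). Without unheated control siRNA replicate 1 or 3 it became 7 or 6 (10.8% or 11.6% of all genes). With quantile normalization, which by construction gives the top-ranked genes of every library the same values, the median under control siRNA was 0.00 and 1 gene was called higher and 2 lower, beside 18.5% and 25.8% of all genes. The count of 11 was 6 with the same summed FPKM and 3 without a filter, beside 10.4% and 13.9% of all genes.

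**Figure D4:**
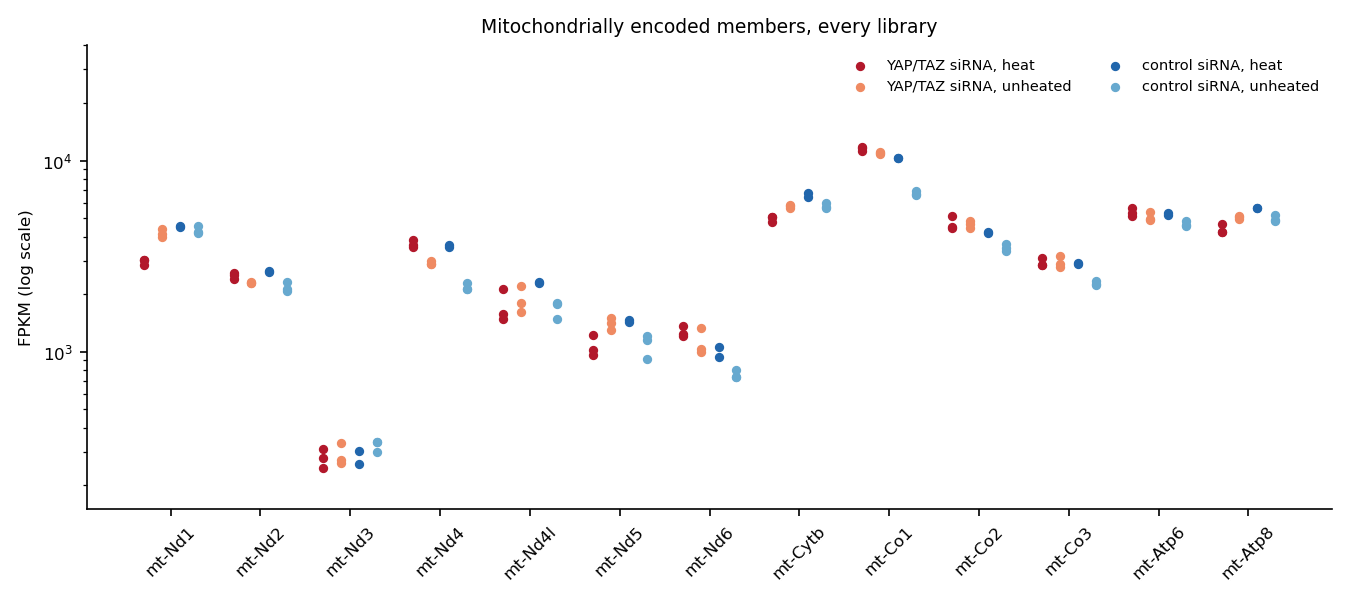
FPKM (vertical axis, log scale) of the 13 mitochondrially encoded members in every library, 1 point per library, with the 4 groups side by side for each gene. For mt-Co1 the unheated control siRNA libraries lie at 6643 to 6967 FPKM, below the other 8, and for mt-Nd1 the heated YAP/TAZ siRNA libraries lie at 2847 to 3011 FPKM, below all others.

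In complex I, mt-Nd4 (chromosome M, 10167 to 11544), like the other mt-Nd genes a subunit of the proton-pumping membrane arm, was at 3535, 3824 and 3612 FPKM in heated and 2884, 2882 and 2994 FPKM in unheated YAP/TAZ siRNA libraries, against 3547 and 3627 FPKM in heated and 2122, 2290 and 2129 FPKM in unheated control siRNA libraries. It was the mitochondrial gene called higher with heat under both siRNAs, by 0.32 ± 0.05 under YAP/TAZ siRNA and 0.72 ± 0.06 under control siRNA (adjusted p = 0.000835 and 9.03e-06, limma). mt-Nd5 (11742 to 13565) was at 1019, 1230 and 962 FPKM in heated and 1505, 1304 and 1412 FPKM in unheated YAP/TAZ siRNA libraries, against 1462 and 1437 FPKM in heated and 1156, 1205 and 915 FPKM in unheated control siRNA libraries. Heated libraries lay below unheated ones under YAP/TAZ siRNA and above them under control siRNA. The changes were -0.40 ± 0.12 and 0.42 ± 0.13 (adjusted p = 0.0203 and 0.0267, limma), and the second was -0.043 with quantile normalization. The first call was lost without heated YAP/TAZ siRNA replicate 1 or 3 or unheated YAP/TAZ siRNA replicate 1 (-0.37 to -0.33), and the second without heated control siRNA replicate 1 or 3 or unheated control siRNA replicate 3 (0.30 to 0.43). The interaction of -0.82 ± 0.18 was the lowest of all members (adjusted p = 0.00667, limma).

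mt-Nd1 (2751 to 3707), which shares no 50-base window with another gene, was at 2847, 3011 and 3005 FPKM in heated and 4000, 4129 and 4400 FPKM in unheated YAP/TAZ siRNA libraries, against 4563 and 4508 FPKM in heated and 4181, 4564 and 4236 FPKM in unheated control siRNA libraries. The 3 heated YAP/TAZ siRNA libraries stood apart at the low end. The change with heat was -0.50 ± 0.06 under YAP/TAZ siRNA (adjusted p = 0.000152, limma), and 0.07 ± 0.06 under control siRNA (adjusted p = 0.392), where quantile normalization gave -0.21. The interaction was -0.57 ± 0.08 (adjusted p = 0.0009). mt-Nd2 and mt-Nd4l rose with heat under control siRNA (0.27 ± 0.06 and 0.46 ± 0.17, adjusted p = 0.00394 and 0.047, limma), the second lost without heated YAP/TAZ siRNA replicate 1, unheated YAP/TAZ siRNA replicate 2, heated control siRNA replicate 1 or 3, or unheated control siRNA replicate 1, 2 or 3 (0.37 to 0.51). Neither passed under YAP/TAZ siRNA (0.12 and -0.12). mt-Nd3 passed no comparison and was at 248 to 339 FPKM.

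mt-Nd6, which lies on the other strand and overlaps mt-Nd5, was at 1246, 1204 and 1367 FPKM in heated and 1036, 999 and 1330 FPKM in unheated YAP/TAZ siRNA libraries, against 938 and 1065 FPKM in heated and 736, 803 and 735 FPKM in unheated control siRNA libraries. YAP/TAZ siRNA libraries were above control siRNA libraries at each temperature. The changes were 0.35 ± 0.12 after heat and 0.55 ± 0.11 without heat (adjusted p = 0.0355 and 0.0022, limma), and the first was lost without heated YAP/TAZ siRNA replicate 1 or 3 or heated control siRNA replicate 1 (0.25 to 0.36). Whether the counting used strand is not given in the sources used here, so reads of the overlap cannot be assigned.

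In complex III, mt-Cytb, which encodes cytochrome b, was at 4788, 5072 and 5066 FPKM in heated and 5839, 5663 and 5775 FPKM in unheated YAP/TAZ siRNA libraries, against 6762 and 6484 FPKM in heated and 5718, 5964 and 5624 FPKM in unheated control siRNA libraries. Without heat the siRNAs overlapped, and after heat they did not. The changes with heat were -0.21 ± 0.05 under YAP/TAZ siRNA and 0.20 ± 0.05 under control siRNA (adjusted p = 0.00613 and 0.0133, limma), the second lost without heated control siRNA replicate 1 (0.17). The interaction was -0.41 ± 0.07 (adjusted p = 0.00241). In complex V, mt-Atp8, a membrane subunit, was called in the same directions: -0.20 ± 0.05 and 0.17 ± 0.06 (adjusted p = 0.0113 and 0.0364, limma), the second lost without heated YAP/TAZ siRNA replicate 1, unheated YAP/TAZ siRNA replicate 1, heated control siRNA replicate 1 or 3, or unheated control siRNA replicate 1 or 3 (0.15 to 0.18). Neighbouring mt-Atp6 had 0.08 ± 0.06, which did not pass (adjusted p = 0.261) and was -0.16 with a length trend removed, and 0.17 ± 0.06 (adjusted p = 0.0486), a call lost when any 1 of 9 libraries was left out (0.16 to 0.20).

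In complex IV, mt-Co1, the subunit that reduces oxygen, had the highest level of all members. It was at 11288, 11712 and 11658 FPKM in heated and 10853, 10964 and 11057 FPKM in unheated YAP/TAZ siRNA libraries, against 10332 and 10284 FPKM in heated and 6643, 6967 and 6695 FPKM in unheated control siRNA libraries. The unheated control siRNA libraries were far below the others. Heat raised it by 0.61 ± 0.05 under control siRNA (adjusted p = 1.45e-05, limma), and YAP/TAZ siRNA raised it by 0.70 ± 0.05 without heat (adjusted p = 3.42e-06). With both, the change was smaller than the sum of these, with an interaction of -0.53 ± 0.07 (adjusted p = 0.000456). mt-Co2 and mt-Co3, the other core subunits, also rose by YAP/TAZ siRNA without heat (0.40 ± 0.07 and 0.37 ± 0.06, adjusted p = 0.000886 and 0.000775, limma). With heat under control siRNA they rose by 0.27 and 0.34 (adjusted p = 0.0146 and 0.00252, limma). Without heated control siRNA replicate 1 or 3 that change of mt-Co2 was 0.28 or 0.26.

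Over all 13, YAP/TAZ siRNA raised 6 and lowered 0 without heat (6 and 0 at an unadjusted p under 0.05), with a median of 0.15. Of all genes 27.1% were called higher and 21.9% lower, with a median of 0.02. After heat YAP/TAZ siRNA raised 2 of the 13 and lowered 4, with a median of -0.02 that was -0.26 to -0.11 under the other scalings. Of all genes 36.3% were called higher and 17.9% lower, with a median of 0.13. The lower calls among the 13 were 10 with a length trend removed and 2 without a filter, beside 27.0% and 14.8% of all genes. The 2 higher calls, mt-Nd6 and mt-Co1, became 0 without heated control siRNA replicate 1, and 1 without heated control siRNA replicate 3 or heated YAP/TAZ siRNA replicate 1 or 3. They were also 0 without a filter, with median-of-ratios scaling, with the same summed FPKM with or without mitochondrial genes, and with a length trend removed. With that trend removed mt-Co1 was at -0.055. Other entries that share windows with mt-Atp6, mt-Co2, mt-Co3 and mt-Nd3 held up to 128%, 115%, 115% and 123% of the member's own FPKM, so reads could be split between them, and those for mt-Nd4 and mt-Co1 up to 67.8% and 25.9%. Adding such copies moved no median of the nuclear or mitochondrial members by more than 0.02. Among the 6 mitochondrial members without a copy or widely shared windows, 5 rose with heat under control siRNA and 4 fell under YAP/TAZ siRNA. An interaction below 0 was called for 4 of them. The matching shares of all genes were 12.4%, 31.7% and 13.4%.

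Complex I assembly factors build the complex and are not part of it. Of 8, 2 rose and 1 fell with heat under YAP/TAZ siRNA, against 0 and 2 under control siRNA (0 and 2 at an unadjusted p under 0.05 in limma). Of all genes 18.6% rose and 31.7% fell under YAP/TAZ siRNA, and 12.4% rose and 36.9% fell under control siRNA. The 2 of 8 that rose (25%) are near the share of all genes, and the 2 that fell under control siRNA (25%) are below it. Ndufaf2 was at 5.83, 5.95 and 7.86 FPKM in heated and 3.95, 3.28 and 4.53 FPKM in unheated YAP/TAZ siRNA libraries, against 6.05 and 7.51 FPKM in heated and 7.34, 7.46 and 7.73 FPKM in unheated control siRNA libraries. The unheated YAP/TAZ siRNA libraries were below all others. It rose with heat under YAP/TAZ siRNA (0.61 ± 0.12, adjusted p = 0.00327, limma) and was the lowest member by YAP/TAZ siRNA without heat (-0.80 ± 0.12, adjusted p = 0.0006). Ndufaf7 fell with heat under control siRNA (-0.72 ± 0.08, adjusted p = 5.96e-05) and had -0.08 ± 0.07 under YAP/TAZ siRNA (adjusted p = 0.345). Ndufaf1 fell under both siRNAs (-0.35 ± 0.08 and -0.57 ± 0.09, adjusted p = 0.00467 and 0.000504). Ndufaf5 rose with heat under YAP/TAZ siRNA by 0.51 ± 0.09 (adjusted p = 0.00162). Ndufaf3 was higher under YAP/TAZ siRNA after heat and without it (0.82 ± 0.10 and 0.57 ± 0.09, adjusted p = 0.000142 and 0.000707). Ndufaf6 was lower without heat (-0.46 ± 0.15, adjusted p = 0.0292, limma), a call lost without unheated YAP/TAZ siRNA replicate 1 or 2 or unheated control siRNA replicate 1, 2 or 3 (-0.48 to -0.41).

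Lists of related genes were read against the shares of all genes called with heat, which were 18.6% higher and 31.7% lower under YAP/TAZ siRNA and 12.4% higher and 36.9% lower under control siRNA. Of 9 regulators of respiratory genes, 0 rose and 3 fell with heat under YAP/TAZ siRNA in limma (0 and 3 at an unadjusted p under 0.05), against 3 and 3 under control siRNA. Under each siRNA the 3 of 9 that fell (33.3%) are near the share of all genes. Ppargc1a was at 3.20, 3.44 and 3.09 FPKM in heated and 5.98, 5.50 and 4.92 FPKM in unheated YAP/TAZ siRNA libraries, against 3.15 and 2.73 FPKM in heated and 3.03, 2.83 and 2.71 FPKM in unheated control siRNA libraries. The unheated YAP/TAZ siRNA libraries were above all others. Its changes were -0.60 ± 0.08 with heat under YAP/TAZ siRNA and 0.74 ± 0.08 by YAP/TAZ siRNA without heat (adjusted p = 0.000267 and 4.2e-05, limma). Yy1, a DNA-binding factor, was at 20.2, 21.5 and 19.5 FPKM under YAP/TAZ siRNA and 34.9 and 34.4 FPKM under control siRNA after heat, a change of -0.73 ± 0.05 (adjusted p = 6.79e-06). Sp1, another such factor, fell with heat under YAP/TAZ siRNA (-0.64 ± 0.10, adjusted p = 0.000709, limma). Nrf1 fell with heat under both siRNAs (-0.21 ± 0.06 and -0.49 ± 0.07, adjusted p = 0.0223 and 0.000367).

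Of 11 tested genes of mitochondrial transcription and DNA maintenance, 1 rose and 4 fell with heat under YAP/TAZ siRNA, against 2 and 8 under control siRNA. The 4 of 11 that fell under YAP/TAZ siRNA (36.4%) are near the share of all genes (31.7%). Polrmt, the mitochondrial RNA polymerase, was at 7.26, 7.01 and 6.77 FPKM in heated and 10.2, 9.68 and 9.33 FPKM in unheated YAP/TAZ siRNA libraries, against 5.58 and 4.65 FPKM in heated and 11.8, 10.0 and 11.6 FPKM in unheated control siRNA libraries. Heated libraries were below unheated ones under each siRNA, and the changes were -0.42 ± 0.08 and -0.99 ± 0.09 (adjusted p = 0.00197 and 1.66e-05, limma). Of 15 genes of mitochondrial RNA stability and processing, 4 rose and 4 fell under YAP/TAZ siRNA, against 1 and 8 under control siRNA. Each count of 4 is 26.7% of the list, beside 18.6% of all genes higher and 31.7% lower. Trmt10c, part of the enzyme that cuts transfer RNAs out of the long transcripts, rose under both (0.59 ± 0.07 and 0.86 ± 0.08, adjusted p = 0.00022 and 2.28e-05). Of 34 other assembly factors, 6 rose and 4 fell under YAP/TAZ siRNA, against 0 and 14 under control siRNA (0 and 17 at an unadjusted p under 0.05). The share of these that rose under YAP/TAZ siRNA and the share that fell under control siRNA were near those of all genes (18.6% and 36.9%). Coa6, a complex IV assembly factor, was at 22.7, 21.7 and 21.9 FPKM under YAP/TAZ siRNA and 10.5 and 10.7 FPKM under control siRNA after heat, a change of 0.99 ± 0.12 (adjusted p = 0.000132, limma).

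Of 13 genes of mobile carriers and of nucleotide and phosphate exchange, 7 rose and 1 fell with heat under YAP/TAZ siRNA, against 0 and 4 under control siRNA (0 and 7 at an unadjusted p under 0.05 in limma). Cycs, cytochrome c itself, was at 183, 168 and 202 FPKM in heated and 113, 115 and 128 FPKM in unheated YAP/TAZ siRNA libraries, against 159 and 166 FPKM in heated and 149, 155 and 158 FPKM in unheated control siRNA libraries. Unheated YAP/TAZ siRNA libraries were below all others. It rose with heat under YAP/TAZ siRNA by 0.62 ± 0.07 (adjusted p = 0.000161, limma), as did Slc25a5, an ADP/ATP carrier, by 0.54 ± 0.04 (adjusted p = 2.66e-05). Coq8a, needed for coenzyme Q synthesis, was at 8.82, 8.31 and 9.26 FPKM under YAP/TAZ siRNA and 0.870, 0.689 and 1.10 FPKM under control siRNA without heat, a change of 2.38 ± 0.12 (adjusted p = 7.86e-07). Of 13 citric acid cycle genes, 8 rose and 1 fell with heat under YAP/TAZ siRNA, against 2 and 3 under control siRNA. The shares of carriers and of citric acid cycle genes that fell under control siRNA (30.8% and 23.1%) are below the 36.9% of all genes. Cs, citrate synthase, rose by 0.30 ± 0.03 under YAP/TAZ siRNA (adjusted p = 0.000177, limma). Ogdh, a subunit of the 2-oxoglutarate dehydrogenase, fell under both siRNAs (-0.42 ± 0.04 and -0.93 ± 0.05, adjusted p = 6.76e-05 and 5.97e-07).

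After heat, YAP/TAZ siRNA raised 1 and lowered 4 of the 9 regulators, raised 4 and lowered 3 of the 11 transcription and maintenance genes, and raised 3 and lowered 2 of the 15 stability and processing genes. Of all genes 36.3% were higher and 17.9% lower in this comparison. The count of 4 among 11 transcription and maintenance genes raised is near the first of these shares. That of 2 among 15 stability and processing genes lowered (13.3%) is near the second. Tfb1m, a mitochondrial ribosomal RNA methyltransferase, was higher by 0.56 ± 0.10 and Twnk, the mitochondrial DNA helicase, lower by -0.73 ± 0.08 (adjusted p = 0.00111 and 8.27e-05, limma). Lrpprc, which stabilises mitochondrial messengers, was lower under YAP/TAZ siRNA after heat (-0.29 ± 0.05, adjusted p = 0.000745) and without it (-0.34 ± 0.04, adjusted p = 0.000164). Of the 34 other assembly factors 15 were higher (44.1%) and 1 lower after heat. Of the 13 carriers 5 (38.5%) were higher and 0 lower, and of the 13 citric acid cycle genes 6 (46.2%) and 0. The share of carriers higher is near the 36.3% of all genes, and those of the other lists lie somewhat above it. Coa7, a complex IV assembly factor, had the interaction 0.87 ± 0.09 (adjusted p = 0.000131, limma), with -0.93 ± 0.07 under control siRNA (adjusted p = 5.19e-06). Coq9, needed for coenzyme Q synthesis, was higher after heat by 0.77 ± 0.07 (adjusted p = 2.03e-05, limma).

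The nuclear members have short transcripts, with a median length of 863 bases, against 2560 bases for all genes tested, and length moved with the results. With heat under YAP/TAZ siRNA, the median log2 change of all genes was 0.26 for transcripts of up to 600 bases, 0.21 for those above that and up to 800, 0.17 up to 1200, 0.04 up to 2000 and -0.18 for longer ones. The nuclear members in the same classes had medians of 0.48, 0.45, 0.50, 0.29 and 0.33 (24, 18, 19, 18 and 9 genes), above all genes in each class. With heat under control siRNA the members had -0.09, -0.04, -0.03, -0.13 and -0.05, beside 0.03, -0.01, -0.05, -0.14 and -0.22 for all genes. By YAP/TAZ siRNA after heat the members had 0.70, 0.57, 0.46, 0.39 and 0.08, beside 0.15, 0.28, 0.20, 0.22 and 0.09 for all genes. In that comparison 23 of 24, 15 of 18, 14 of 19, 13 of 18 and 2 of 9 members were called higher. Of all genes in the same classes 28.9, 42.2, 40.8, 46.4 and 34.5% were called higher. In the longest class of that comparison the members did not exceed all genes. The Spearman correlation of change with length under YAP/TAZ siRNA was -0.36 over 88 nuclear members and -0.44 over 12259 genes, which share libraries and are not independent replicates. For YAP/TAZ siRNA after heat it was -0.54 and -0.16, and for the interaction -0.47 and -0.24. In heated YAP/TAZ siRNA libraries the summed FPKM was also higher, and with all libraries scaled to the same sum 53 nuclear members were called higher and 3 lower with heat under YAP/TAZ siRNA. Of all genes 11.2% were higher and 46.0% lower with that scaling. With a length trend removed from each library in place of this scaling, 51 nuclear members were called higher and 2 lower, beside 22.1% and 21.8% of all genes.

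**Figure D5:**
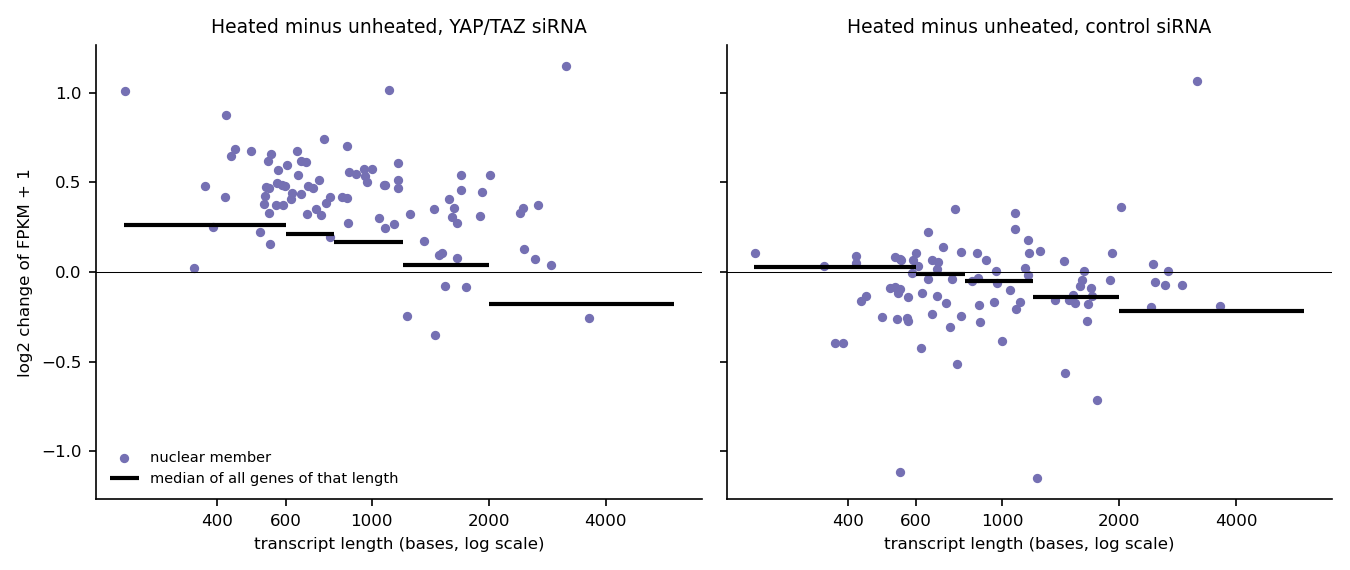
Log2 change of FPKM + 1 with heat (vertical axis, heated minus unheated) of each tested nuclear member against its transcript length (horizontal axis, log scale), under YAP/TAZ siRNA (left) and control siRNA (right). Black bars are the medians of all tested genes in 5 classes of length. Under YAP/TAZ siRNA the bars run downward with length, between 0.26 and -0.18.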

How the data were processed

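RNA of B16-OVA cells (Trizol, NEBNext Ultra libraries, per the labels' protocols) was sequenced in 11 libraries. The authors deposited FPKM per gene. Tools in the submitters' processing notes are StringTie, HISAT2, Trimmomatic 0.36, DESeq2 and SAMtools, with the build GRCm38; the strand setting is not given. Library depth was read from the steps between low FPKM values of single genes. Positions are from GENCODE M21.

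FPKM was analysed as log2(FPKM + 1) for 12626 genes that reached 1 FPKM in 2 or more libraries. A single limma 3.58.1 fit (R 4.3.3) had 4 groups, 7 residual degrees of freedom and a mean-variance trend. P-values were adjusted by Benjamini-Hochberg per comparison over all genes tested, and calls needed an adjusted p under 0.05. Because heat and siRNA comparisons share libraries, they are not independent. Levels were summed as FPKM with pandas 2.3.3 and drawn with matplotlib 3.10.9.

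Named genes were all mitochondrially encoded members, the highest and lowest called nuclear subunit per complex and comparison, listed core subunits, isoform pairs and assembly factors, members called in opposite directions, and up to 2 genes per related list and comparison. A few genes that this rule names are not reported here. Members and lists were chosen with earlier results of these data known. The 50-base windows of each member's transcripts were compared with all other annotated genes.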

Additional observations from a re-analysis of the deposited data

Results flagged for a closer look

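For 30 of the members named here the heat response under YAP/TAZ siRNA differed from that under control siRNA by the interaction term of the limma fit. Of all genes tested 24.6% had an interaction called above 0 and 13.4% below. Naming took in the highest called interaction of each complex and members called in opposite directions. Part of this count was thus fixed by the naming. The differences are log2 changes with heat under YAP/TAZ siRNA minus those under control siRNA. Among mitochondrially encoded genes they were -0.57 for mt-Nd1, -0.39 for mt-Nd4, -0.82 for mt-Nd5, -0.41 for mt-Cytb, -0.53 for mt-Co1, -0.35 for mt-Co3 and -0.38 for mt-Atp8. For each of these heat gave the lower response under YAP/TAZ siRNA.

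Among nuclear subunits of complexes I and II the differences were 0.90 for Ndufb3, 0.46 for Ndufs7, 0.45 for Ndufv1, 0.49 for Ndufv3 and 0.91 for Sdhd. In complex III they were 0.24 for Cyc1, 0.82 for Uqcr11, 0.35 for Uqcrc1, 0.33 for Uqcrfs1 and 1.28 for Uqcrh. In complex IV they were 0.58 for Cox5a, 0.74 for Cox5b, 0.77 for Cox6a1, 0.83 for Cox6b1, 0.90 for Cox6c2 and 0.96 for Cox7b. In complex V they were 0.18 for Atp5a1 and 0.34 for Atp5b, which were -0.19 and -0.0020 with quantile normalization, 0.79 for Atp5e and 0.92 for Atp5mpl. Among assembly factors they were 0.75 for Ndufaf2, 0.53 for Ndufaf5 and 0.63 for Ndufaf7.

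Some of these calls were lost on leaving out a library. The call of Ndufs7 was lost without heated control siRNA replicate 3 (0.40), that of Ndufv1 without heated YAP/TAZ siRNA replicate 1 or 3, unheated YAP/TAZ siRNA replicate 2, heated control siRNA replicate 1, or unheated control siRNA replicate 1 or 3 (0.37 to 0.43), and that of Ndufv3 without heated control siRNA replicate 1 (0.44). The call of Cox6c2 was lost without heated YAP/TAZ siRNA replicate 1, 2 or 3, unheated YAP/TAZ siRNA replicate 1 or 2, heated control siRNA replicate 1 or 3, or unheated control siRNA replicate 3 (0.72 to 1.01), and that of Atp5a1 without heated YAP/TAZ siRNA replicate 1 or 3, unheated YAP/TAZ siRNA replicate 1 or 2, heated control siRNA replicate 1 or 3, or unheated control siRNA replicate 1 or 3 (0.15 to 0.19). The call of Ndufaf2 was lost without heated control siRNA replicate 1 (0.61), and that of Ndufaf5 without heated control siRNA replicate 3 (0.47).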

How the results depend on the processing

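Pseudocounts of 0.1 or 5, a filter of 5 FPKM, no variance trend and added copies (the last chosen after seeing the data, like the length trend) kept every count of calls within 1.5 times and every median within its replicate spread. With 2 heated control libraries, comparisons that use them are the least precise. Causes of the moves below were not tested, except that quantile normalization equalises the top ranks by construction.

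Counts are called higher or lower, with nuclear and mitochondrially encoded members apart. The shares of all genes moved too. With heat under control siRNA the share lower was 24.4% with median-of-ratios scaling, 25.8% with quantile normalization and 42.5% with equal summed FPKM. It was 38.5% with mitochondrial genes left out of that sum, 22.2% with a length trend removed, 15.6% without a filter and 37.6% with only the groups compared. Median-of-ratios scaling gave, with heat under control siRNA, 10 nuclear higher and 4 lower. With heat under YAP/TAZ siRNA it gave 1 nuclear lower and 4 mitochondrial higher and 1 lower. It gave 9 nuclear higher by YAP/TAZ siRNA without heat, 1 nuclear lower and 0 mitochondrial higher after heat, and 35 nuclear interactions above 0. Quantile normalization gave, under control siRNA, 8 nuclear higher and 1 mitochondrial higher and 2 lower with heat. Under YAP/TAZ siRNA it gave 4 nuclear lower and 2 mitochondrial higher with heat. By YAP/TAZ siRNA it gave 1 mitochondrial lower without heat and 3 nuclear lower after heat. Its interactions were 23 nuclear and 1 mitochondrial above 0 and 3 mitochondrial below.

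Equal summed FPKM gave, with heat under control siRNA, 25 nuclear lower and 6 mitochondrial higher and 1 lower, and after heat 1 nuclear lower and 0 mitochondrial higher by YAP/TAZ siRNA. With mitochondrial genes left out of that sum, heat gave 18 nuclear lower under control siRNA. Under YAP/TAZ siRNA it gave 6 nuclear lower, 0 mitochondrial higher and 9 lower. After heat YAP/TAZ siRNA gave 3 nuclear lower and 0 mitochondrial higher, and 35 nuclear interactions were above 0. With a length trend removed, heat under control siRNA gave 15 nuclear higher and 1 mitochondrial lower, and under YAP/TAZ siRNA 8 mitochondrial lower. After heat YAP/TAZ siRNA gave 5 nuclear lower and 0 mitochondrial higher and 10 lower. The interactions were 24 nuclear above and 12 mitochondrial below 0.

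Without a filter on low values, 3 mitochondrial members were higher with heat under control siRNA and 1 lower under YAP/TAZ siRNA. By YAP/TAZ siRNA 9 nuclear were higher without heat and 0 mitochondrial higher and 2 lower after heat, and 2 mitochondrial interactions were below 0. Fits of only the groups compared gave, with heat under control siRNA, 4 nuclear higher and 16 lower, and under YAP/TAZ siRNA 1 nuclear lower and 2 mitochondrial lower. After heat they gave 1 nuclear lower and 1 mitochondrial higher by YAP/TAZ siRNA.

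Same-numbered libraries of different groups correlated by -0.11 to 0.13 in their deviations from group means, with 3 of 15 pairs over 0.1. Differently numbered ones correlated by -0.18 to 0.16, with 2 of 30 pairs over 0.1. Groups of 2 or 3 libraries make this check weak, so it does not exclude a pairing. The main fit did not take the numbers to pair samples. With the replicate number as a block, 28 nuclear members were lower with heat under control siRNA, 3 mitochondrial higher under YAP/TAZ siRNA and 69 nuclear interactions above 0. Of all genes 38.0% were lower with heat under control siRNA in that fit. With heat under YAP/TAZ siRNA 19.4% were higher, and 26.8% of interactions were above 0.

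Leaving out 1 library moved these counts over 1.5 times: mitochondrial higher with heat, 5 to 11 under control siRNA and 1 to 2 under YAP/TAZ siRNA; nuclear lower with heat under YAP/TAZ siRNA, 1 to 3 (1 without heated YAP/TAZ siRNA replicate 2 or unheated YAP/TAZ siRNA replicate 3); nuclear by YAP/TAZ siRNA without heat, 9 to 15 higher and 8 to 15 lower; mitochondrial higher after heat, 0 to 2; and nuclear interactions above 0, 25 to 63.

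Signs of single members turned as follows. With quantile normalization the change with heat under control siRNA was -0.21 for mt-Nd1 and -0.043 for mt-Nd5, and under YAP/TAZ siRNA -0.11 for Sdhb, -0.38 for Atp5a1 and -0.060 for Atp5b. It was -0.14 for Cyc1 by YAP/TAZ siRNA after heat, and the interactions were 0.22 for mt-Atp6, -0.19 for Atp5a1 and -0.0020 for Atp5b. With a length trend removed heat under control siRNA gave 0.13 for Ndufs1, 0.14 for Sdha and 0.15 for Atp5a1, and under YAP/TAZ siRNA -0.22 for mt-Co2 and -0.16 for mt-Atp6. After heat it gave -0.20 for mt-Nd4, -0.055 for mt-Co1, -0.23 for mt-Co3, -0.22 for mt-Atp6, -0.21 for Ndufb8 and -0.22 for Cyc1. Equal summed FPKM gave -0.15 for mt-Co2 and -0.039 for Atp5a1 with heat under YAP/TAZ siRNA. With mitochondrial genes left out of the sum these were -0.18 and -0.066, beside -0.12 for mt-Co1, -0.11 for mt-Atp6, -0.15 for Sdha and -0.11 for Uqcrc1, and after heat -0.11 for Cyc1. With copies added Atp5g1 had -0.38 with heat under control siRNA.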
